A study of Mus musculus with 4 samples.

Results

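The T cell receptor beta locus (Trb) of the mouse was examined for open chromatin in DN3 thymocytes with and without the adhesion molecule EpCAM on their surface, called the EpCAM-positive and the EpCAM-negative fraction. All called peaks that overlapped mm10 chromosome 6 from 40880000 to 41570000 were taken, a window of 690.0 kb that holds the 53 annotated Trb segments and 19 other genes, and each was assigned to its nearest Trb segment. The window held 62 peaks over the 4 libraries, which merged into 19 regions of the 36224 found over chromosomes 1 to 19, X and Y. A region is a stretch covered by peaks that overlap by at least 1 bp in any of the lists. Both fractions came from the thymus of wild-type mice, each with 2 ATAC-seq libraries numbered 1 and 2 (called the positive and the negative libraries), and no age, sex or treatment was stated. In ATAC-seq a transposase cuts and tags DNA where chromatin is open. DN3 cells were sorted by flow cytometry and passed over a magnetic column with a biotin-coupled antibody to EpCAM, so the negative fraction consisted of the cells that were not retained. Nothing in the labels says that the libraries came from separate mice, and any p-value therefore measures only the spread between these libraries, which may be technical.

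The Trb locus encodes the beta chain of the T cell receptor and is assembled by the RAG recombinase, which joins a D to a J segment and then a V segment to the joined DJ. DN3 is the thymocyte stage at which the V to DJ step is carried out and at which cells with a working beta chain are selected. In the locus most V segments lie far from the D, J and C segments and are read towards them, a block of trypsinogen genes lies between, and Trbv31 lies inverted at the far end, beyond a well-studied enhancer that follows Trbc2. Joining of segments that are read in the same direction deletes the DNA between them. For a site in such DNA, fewer copies and less open chromatin cannot be told apart here.

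The genes that lie among the Trb segments without being part of the receptor are represented by a pair of trypsinogen promoters, shown because they mark the stretch of the locus where 1 peak was called in 1 library. Both are read on the plus strand of chromosome 6 and were taken from RefSeq on GRCm38.p6, as the 100 bases that end just before the gene start, with the TATA box letters TATAAA in capitals.
Try4 (chr6:41302172-41302271): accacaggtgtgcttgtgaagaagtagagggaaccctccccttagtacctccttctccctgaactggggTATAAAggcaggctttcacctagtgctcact
Prss2 (chr6:41521676-41521775): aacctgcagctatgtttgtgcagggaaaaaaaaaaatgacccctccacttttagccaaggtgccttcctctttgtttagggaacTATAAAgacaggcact
Try4 and Prss2 encode trypsinogens, precursors of a digestive protease of the exocrine pancreas. TATAAA was searched on both strands of the same 100 bases before each gene start, and 8 of 11 windows of non-receptor genes in the locus held it, against 5.56% of all 32851 windows in the table. The E-box letters CANNTG, bound by E proteins among others, were found in 6 of these 11 windows and in 34.4% of all windows. Trypsinogen genes, among them Try4, Prss1, Prss2 and Prss3 with TATAAA, include close copies, so the 11 windows are not separate observations. The nearest region to the Prss2 promoter window lay 10486 bp away, at Trbd1, and the nearest to the Try4 window lay 83254 bp away, at Trbv24.

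The EpCAM-positive lists held 26029 and 29030 peaks and the EpCAM-negative lists 24598 and 25924. Read totals are not known. The lowest background common to the peaks of a list was used as a relative measure of depth. It was 0.388 and 0.383 in the positive and 0.290 and 0.286 in the negative libraries, with a ratio of means of 1.34. The unit is called fragments per base here, although whether the caller counted whole fragments or single reads is not stated. Whether this background follows depth alone was not tested. The negative lists also reached down to a lower −log10 q (1.32 and 1.34) than the positive lists (2.07 and 2.02). A peak within 500 bp of the gene was present in all 4 libraries for 5 of 8 DN3 markers, namely Bcl11b, Cd3e, Il2ra, Notch1 and Tcf7, and in no library for Rag1. Of the markers of other cells, Aire and Foxn1 of the 5 thymic epithelial genes had one in all 4 libraries, with 2 to 3 genes per library. None of the 4 myeloid or 3 natural killer genes did, with 1 to 2 and 0 to 1 genes per library. Krt5 and Psmb11 of epithelium, Csf1r and Lyz2 of myeloid cells, and Ncr1 and Klrb1c of natural killer cells had no peak within 500 bp in any library. Among protein-coding genes as a whole, 51.1% had a peak within 500 bp in all 4 libraries. Of 19 genes that act in receptor assembly and early signalling, 16 did, including Dntt, which adds bases at the joints, Xrcc4 and Lig4, which seal them, and Cd3d, Cd3e and Cd3g, whose products form the receptor complex.

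**Figure D1:**
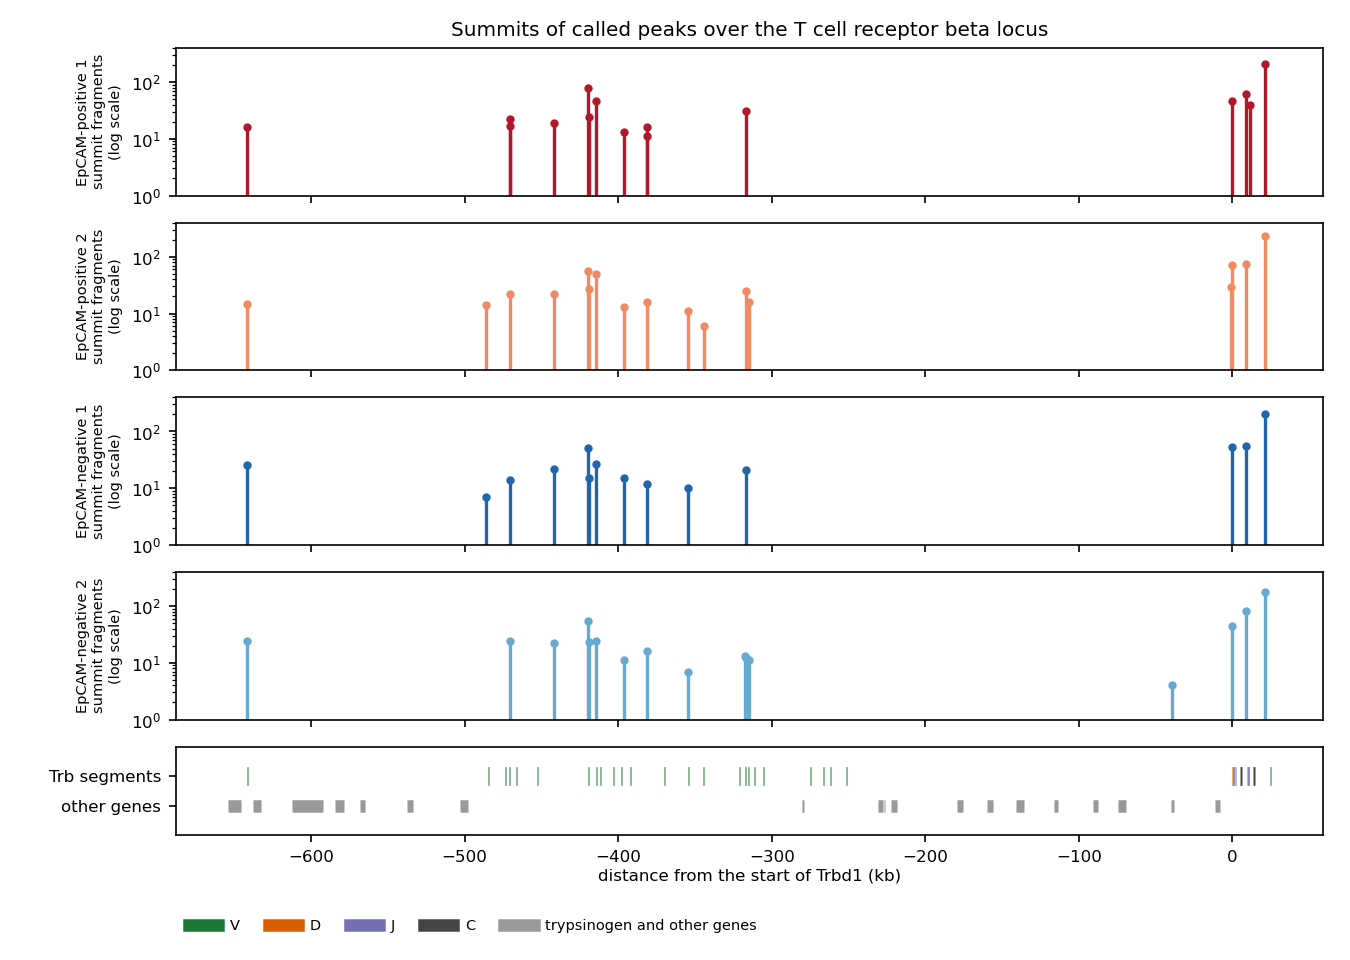
Called peaks over the Trb locus in each library, with the number of summit fragments on a log axis (stems) against distance from the start of Trbd1 in kb, and the annotated segments and other genes in the lowest panel. Peaks stand over part of the V segments and over the D end, where the highest stem reaches 177 to 231, and the stretch of trypsinogen genes between them holds 1 peak in 1 library.

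Open chromatin in the locus lay in separate stretches. The 236.4 kb from 1000 bp before Trbv2 to 1000 bp after Trbv30 held 13 regions, or 5.50 per 100 kb, and the 33.3 kb from the end of Prss2 to Trbv31, with the D, J and C segments, held 4 regions, or 12.0 per 100 kb. Between these stretches, the 242.1 kb with 11 trypsinogen and other genes held 1 region, or 0.413 per 100 kb. The 154.7 kb between Trbv1 and Trbv2, with 6 other genes, held 0 regions. From the last region of the V cluster, at Trbv24, to the next one ran 275.4 kb, and between regions called in all 4 libraries the longest gap was 315.8 kb, from Trbv23 to Trbd1. Outside the window, the nearest region on the V side lay 419.1 kb away, and on the C side the next one lay 49.3 kb away, at 41604433 to 41605724, called in all 4 libraries.

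No trypsinogen or Prss gene of the locus had a peak within 500 bp in any library, of 8 listed, with the pseudogene Gm5409 counted among them. The same held for all 14 protein-coding genes of the window, against the 51.1% of protein-coding genes over the genome with one in all 4 libraries. None of the 11 RefSeq promoter windows of these genes was overlapped by a peak in any library. A rough upper limit for their share, from counting error only, was 27.3%. Of all promoter windows (250 bases before to 50 after the start), 28.1% were overlapped in all 4 libraries. The limit is too rough, and the 11 windows too few and not separate observations, to tell their share from that of all windows. Trypsinogen genes include close copies, and how reads that match several of them were placed is not stated, so the missing calls there are uncertain. The single region of the trypsinogen stretch lay in the pseudogene Gm29813, from 41494159 to 41494370, and is named after its values were seen. It was called in EpCAM-negative replicate 2 alone, with 4 summit fragments (95% Poisson interval 1.09 to 10.2), and ranked 25550th in its list.

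The highest peak of the locus in every library lay between Trbc2 and Trbv31, where the 3′ enhancer is known to lie. This region runs from 41554147 to 41555120, 5966 bp after the end of Trbc2 and 2573 bp before Trbv31. The number of fragments over the summit, as solved from each peak's fold and −log10 p, was 208 (95% Poisson interval 180.7 to 238.3) and 231 (202.2 to 262.8) in EpCAM-positive replicates 1 and 2, and 205 (177.9 to 235.1) and 177 (151.9 to 205.1) in EpCAM-negative replicates 1 and 2. All 4 intervals, which cover counting error only, overlap, by the least between EpCAM-positive replicate 2 and EpCAM-negative replicate 2. The summits of the 4 libraries lay within 45 bp of each other. By −log10 q the peak ranked 276th and 176th in the EpCAM-positive lists and 155th and 291st in the EpCAM-negative lists, within the top 1.12% of each. The local background that the caller set there was 43.7, 44.6, 50.3 and 47.2 times the library background in the same order. Whether the peak's own fragments count in that local value is not stated. By distance the region was assigned to Trbv31.

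A region in front of each D segment was called in every library. D segments are the short middle pieces of the beta chain gene, and a promoter in front of Trbd1 is known to be active before joining. The Trbd1 region runs from 41532311 to 41533195 and ends 6 bp before the 12 bp segment. It had 47 and 73 summit fragments in the positive libraries and 53 and 45 in the negative libraries, with the highest value in EpCAM-positive replicate 2 and the fractions overlapping. That library alone had a further, weaker peak at the far side of the region, with 29 fragments, and over all peaks of the region the summits spanned 536 bp. The Trbd2 region runs from 41541502 to 41542289 and covers the 14 bp segment. It had 61 and 76 summit fragments in the positive libraries and 56 and 83 in the negative libraries, so both the lowest and the highest value came from EpCAM-negative libraries. The main summits of the 4 libraries lay 207 to 430 bp before Trbd1 and 118 to 245 bp before Trbd2. Local background was 13.8 to 18.3 times the library background around the main Trbd1 summit and 20.2 to 24.8 times around that of Trbd2.

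The J and C segments had few peaks of their own. Of 14 J segments, which form the end of the variable part, 1 had a peak within 500 bp in any library, and 0 had one in all 4. This was Trbj2-1, 3 libraries of 4, reached by the edge of the Trbd2 peak from a distance that passed 500 bp in EpCAM-positive replicate 2. The constant segments Trbc1 and Trbc2 had none within 500 bp. A region from 41544375 to 41544873, 519 bp after Trbj2-7, was called in EpCAM-positive replicate 1 alone with 39 fragments (27.7 to 53.3), the highest summit of any region in the window that was missing from a library; it was picked after its values were seen. Its local background was 23.6 times that of the library.

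**Figure D2:**
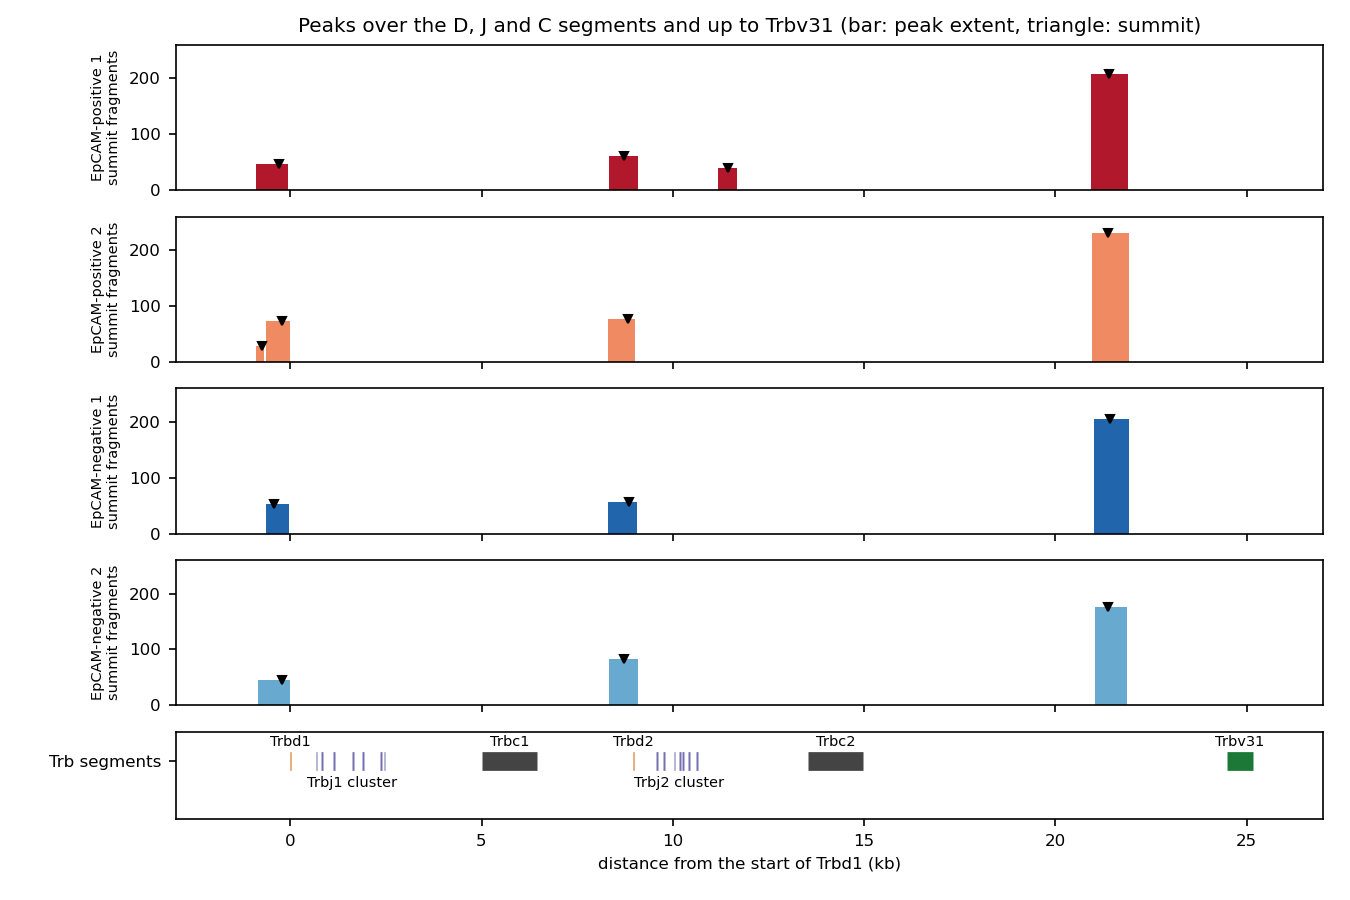
The D, J and C end of the locus in each library, with peak extent (bars), summit (triangles) and summit fragments (bar height) against distance from the start of Trbd1 in kb. Peaks lie before Trbd1 and at Trbd2 in all 4 libraries, 1 further peak after the Trbj2 cluster lies in EpCAM-positive replicate 1, and the highest, at 177 to 231 fragments, lies between Trbc2 and Trbv31.

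V segments, which supply the larger part of the variable domain, were marked unevenly. Of 35, 7 had a peak within 500 bp in all 4 libraries, and 10 had one in at least 1 library. The 7 were Trbv1, Trbv5, Trbv10, Trbv12-1, Trbv12-2, Trbv16 and Trbv23. Of the 22 V segments that are not marked as pseudogenes, 6 had a peak in all 4 libraries and 9 in any. Of the 13 marked as pseudogenes 1 did, Trbv10. Trbv31, nearest to the enhancer, had no peak within 500 bp in any library. Over all classes, 9 of 53 segments had a peak within 500 bp in all 4 libraries, and 10 and 12 segments did in the positive and 11 and 12 in the negative libraries.

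The highest V region lay in front of Trbv12-1, from 41113030 to 41113724. It had 80 and 57 summit fragments in the positive libraries and 51 and 55 in the negative libraries, with EpCAM-positive replicate 1 above the other 3. All 4 summits fell within 25 bp, at 316 to 341 bp before the start of the segment. A further region, from 41114052 to 41114325, began at the end of the same segment and had 24, 27, 15 and 23 fragments in the order EpCAM-positive 1 and 2, EpCAM-negative 1 and 2. Both positive libraries were higher there as counted, and the fractions overlapped once each library was scaled for depth. The summits lay 30 to 116 bp after the segment end, the side on which a V segment carries its recombination signal. The next segment of this subgroup, Trbv12-2, had a region from 41118412 to 41118963 with 47 and 50 fragments in the positive libraries and 27 and 24 in the negative libraries. Here both EpCAM-positive libraries were higher, and the summits lay 223 to 333 bp before the segment. Trbv12-1 and Trbv12-2 are close copies, and the sources used here do not say how reads that match both were placed, so the split of fragments between them is uncertain.

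Trbv1, the V segment that stands apart at the far end of the locus, had a region from 40890941 to 40891644. It had 16 and 15 summit fragments in the positive libraries and 26 and 24 in the negative libraries. Both EpCAM-negative libraries were higher although their library background was lower, and the summits lay 1 to 132 bp before the segment start. Trbv10 had a region from 41091270 to 41091789, 146 bp before the segment, with 19, 22, 22 and 22 fragments in the same library order and summits 356 to 393 bp before its start. Before scaling for depth these 4 values were nearly level.

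Trbv5, Trbv16 and Trbv23 carried most of their summits inside or behind the segment. The Trbv5 region from 41062615 to 41063250 had 22, 22, 14 and 24 fragments, with the lowest value in EpCAM-negative replicate 1 and summits 39 to 204 bp after the segment end. Trbv16, from 41151766 to 41152517, had 16, 16, 12 and 16 fragments, and EpCAM-positive replicate 1 had a further peak of 11 near the segment start. The main summit lay inside Trbv16 in 3 libraries and 25 bp after its end in EpCAM-positive replicate 1. Trbv23, from 41215762 to 41216537, had 31, 25, 21 and 13 fragments, and in EpCAM-negative replicate 2 the stretch was listed as a pair of peaks, of 13 before the segment and 12 inside it. In the other 3 libraries the summit lay inside. Its lowest value was thus in the library where the caller had split it, and the fractions overlapped once each library was scaled. A region from 41136886 to 41137198, 1270 bp after Trbv14, had 13, 13, 15 and 11 fragments and no V segment within 500 bp.

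The other V regions were called in fewer libraries, and are named after their values were seen. Trbv19 had a peak in 3 libraries, with 11 fragments in EpCAM-positive replicate 2 and 10 and 7 in the negative libraries, each with its summit inside the segment. Trbv24 had one in replicate 2 of each fraction, with 16 and 11 fragments, and a region 526 bp before Trbv2 was called in EpCAM-positive replicate 2 with 14 and EpCAM-negative replicate 1 with 7. Trbv20 in EpCAM-positive replicate 2, with 6 fragments, and a second Trbv5 region in EpCAM-positive replicate 1, with 17, rested on 1 library each. These peaks had 6 to 17 fragments, where the lowest value among V regions called in all 4 libraries was 11, so at this depth a missing call does not show closed chromatin.

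Summits of the 47 V peaks lay before, inside and after the nearest segment in each library. Over the 4 libraries 19 lay before the start, 12 inside and 16 after the end. These counts include summits 622 to 654 bp before Trbv2 and 1407 to 1494 bp after Trbv14, which are not at a segment. In the EpCAM-positive libraries 4 and 5 lay before, 3 and 3 inside and 4 and 5 after, and in the negative libraries 5 and 5 before, 3 and 3 inside and 3 and 4 after. For the regions before Trbv10, Trbv12-1 and Trbv12-2 the 4 summits lay within 37, 25 and 110 bp. At Trbv23 and Trbv16, where 1 library had a further peak, the summits of all peaks spanned 382 and 432 bp. The span at Trbv16 was set by the further peak of EpCAM-positive replicate 1, with 11 fragments. Peaks of 1 segment in several libraries share that segment and are not separate observations.

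**Figure D3:**
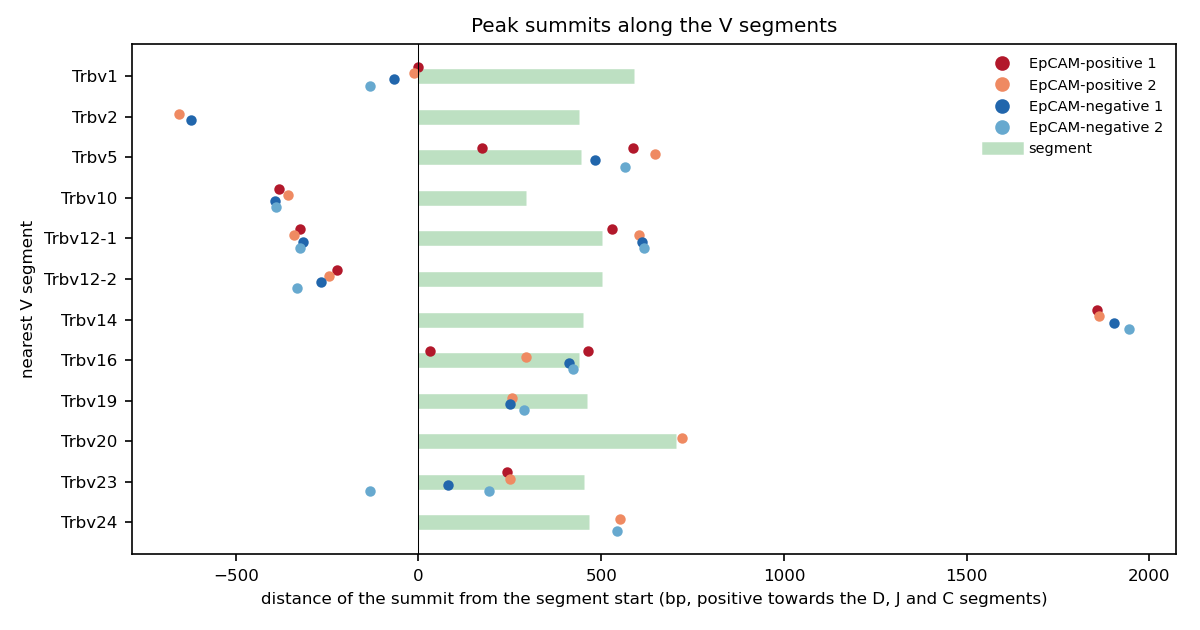
Position of each V peak summit in bp from the start of its nearest V segment (points, 1 colour per library, green bars for the segments), positive towards the D, J and C end. Trbv10, Trbv12-1 and Trbv12-2 have summits before the start in all 4 libraries, the Trbv5 region called in all 4 has them after the end, and Trbv19 has them inside.

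**Figure D4:**
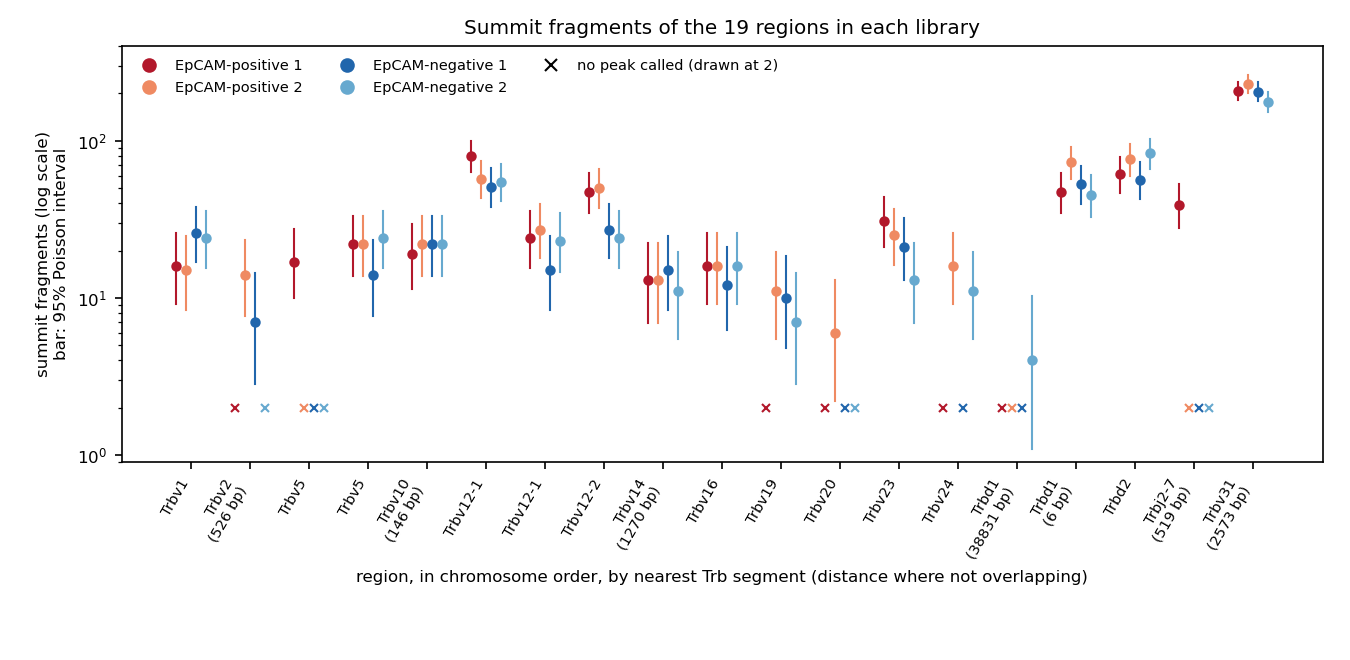
Summit fragments of all 19 regions in each library on a log axis, in chromosome order by nearest Trb segment, with 95% Poisson intervals (counting error only) and crosses where no peak was called. The region between Trbc2 and Trbv31 stands highest at 177 to 231, the D regions follow at 45 to 83, and 1 V value, 80 at Trbv12-1, lies above 57.

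Whether EpCAM-positive and EpCAM-negative DN3 cells differ at the locus was asked first of the calls. Of the 19 regions, 12 were called in all 4 libraries (63.2%, Clopper-Pearson 95% interval 38.4 to 83.7%), against 46.3% of all regions. The number called in both EpCAM-positive and neither EpCAM-negative library was 0 (interval 0 to 17.65%), against 4.4% of all regions. The reverse pattern was also at 0, against 1.72%. A further 4 regions (21.1%, 6.05 to 45.6%) were called in 1 library alone, against 29.8% of all. Another 2 (10.5%, 1.30 to 33.1%) were called in 1 library of each fraction, against 6.95% of all. The remaining 1 (5.26%, 0.133 to 26.0%) was called in 3 libraries, against 10.8% of all. With 19 regions these intervals hold the shares over all regions. Leaving out EpCAM-positive replicate 2 gave 3 regions called in the EpCAM-positive fraction alone and 1 in the EpCAM-negative fraction alone, and leaving out EpCAM-positive replicate 1 gave 1 and 0. Without EpCAM-negative replicate 1 the counts were 0 and 1. In these counts a single library stands for the fraction that lost one. Their shares over all regions were not computed, and 4.4% and 1.72% do not apply to them. The 3 regions included the Trbv16 peak of 11 fragments in EpCAM-positive replicate 1, which only the left-out library had joined to the main Trbv16 peak.

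The number of peaks was 15 and 17 in the positive and 14 and 16 in the negative libraries, or 16 ± 1.41 against 15 ± 1.41 (SD over 2 libraries each, exact two-sided permutation p = 0.667). This difference of 1 peak was smaller than the spread, and was 0 without EpCAM-positive replicate 2 or without EpCAM-negative replicate 1. Among peaks with a −log10 q of at least 5 the differences were 3 peaks and 1345.5 bases, each with an exact permutation p of 0.33. Bases under peaks were 7922 and 7736 in the positive and 6859 and 7069 in the negative libraries, or 7829 ± 132 against 6964 ± 148 (SD over 2 libraries each, exact two-sided permutation p = 0.333, the smallest that 2 against 2 allows). The fractions did not overlap in bases, with 1.12 times more in the positive libraries. The library background and the lowest listed −log10 q also did not overlap between fractions, and their part in this was not tested.

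Heights were then compared over the 12 regions called in all 4 libraries, with summit fragments divided by the background of the library. Both EpCAM-positive libraries were higher in 1 region, at Trbv12-2, against 13.3% of all regions called in all 4 libraries. Both EpCAM-negative libraries were higher in 4, at Trbv1, Trbv10, Trbv14 and between Trbc2 and Trbv31, against 32.1% of all, and the fractions overlapped in the other 7. At 8.33% and 33.3% of the 12, neither count stands far from its share over the genome. The median log2 ratio of EpCAM-positive over EpCAM-negative was -0.21 over the 12 regions and -0.12 over all 16761, and these counts depended on the scale. Divided instead by each library's median summit fragments over the regions called in all 4 libraries, 1 and 3 regions did not overlap, against 19.3% and 24.4% over the genome. Without scaling, 5 and 1 regions did not overlap, against 49.5% and 5.2%, with a genome median log2 ratio of 0.30. Trbv12-2 was higher in both EpCAM-positive libraries and Trbv1 in both EpCAM-negative libraries under all 3 scales. Leaving out a library cannot undo an order in which the fractions do not overlap, so it was no further check.

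At Trbv12-2 the scaled height was 126 ± 6.77 times the library background in the positive and 88.5 ± 6.61 in the EpCAM-negative fraction (SD, n = 2 each). The ratio of summed fragments, scaled, was 1.42 (95% counting interval 1.00 to 2.04), higher than in 96.1% of all regions called in all 4 libraries. At Trbv1 the scaled height was 40.2 ± 1.43 against 86.8 ± 4.17 (SD, n = 2 each), a ratio of 0.463 (0.286 to 0.740), and 0.794% of all regions had a lower one. These 2 were the highest and the lowest ratio among 12 regions and were not tested one by one, since 2 libraries against 2 cannot give a p below 0.33. At Trbv12-1, the close copy of Trbv12-2, the ratio was 0.966 (0.744 to 1.26) before the segment and 1.00 (0.646 to 1.57) after it.

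At the region between Trbc2 and Trbv31 the scaled height was 569 ± 47.9 in the positive and 663 ± 63.1 in the EpCAM-negative fraction (SD, n = 2 each), a ratio of 0.859 (0.747 to 0.987). Its order turned round without scaling, where the log2 ratio was 0.20. The ratios at Trbv5, before Trbv12-1, at Trbv16 and at Trbd1 also changed sign then, to 0.21, 0.37, 0.19 and 0.29 on the log2 scale. Over the genome 37.3% of all regions had a lower scaled ratio than the region between Trbc2 and Trbv31. At Trbd1 the ratio was 0.915 (0.695 to 1.21), and at Trbd2 it was 0.736 (0.577 to 0.939) with scaled values that overlapped, 157.1 and 198.5 against 193.2 and 289.8. The interval at Trbd2 excludes 1 on counting error alone, yet the spread between its EpCAM-negative libraries was larger than the gap between fractions. The other ratios ran from 0.696 (0.444 to 1.09) at Trbv10 to 1.23 (0.790 to 1.94) at Trbv23, each with an interval that includes 1.

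**Figure D5:**
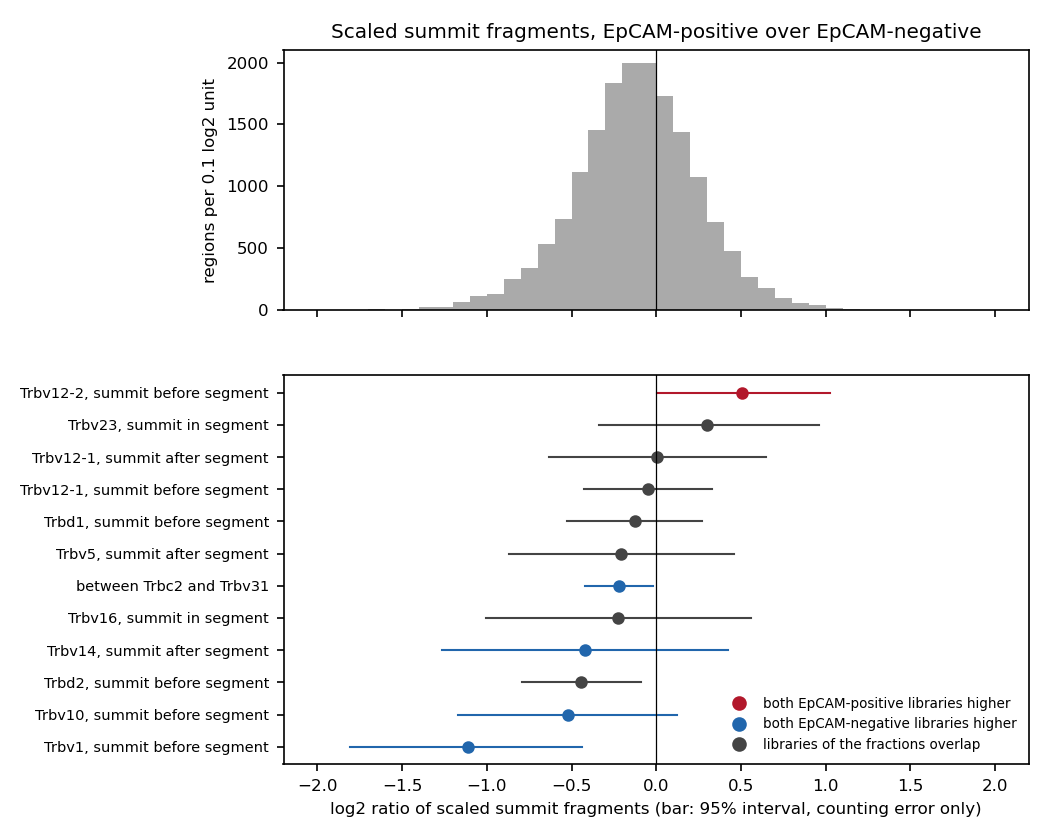
Log2 ratio of scaled summit fragments, EpCAM-positive over EpCAM-negative, for all 16761 regions called in all 4 libraries (histogram) and for the 12 of the Trb locus (points, 95% counting intervals). Trbv12-2 lies at 0.51 and Trbv1 at -1.11, the other 10 lie between them, and the whole distribution is centred at -0.12.

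Beside the other receptor loci of T cells, Trb had 2.85 regions per 100 kb from its first to its last segment, against 2.39 over the joined alpha and delta loci (Tra with Trd, 43 regions in 1796 kb of chromosome 14) and 4.59 over gamma (Trg, 8 regions in 174.3 kb of chromosome 13). Regions called in all 4 libraries made up 63.2% at Trb, 41.9% at Tra with Trd and 62.5% at Trg. V segments with a peak within 500 bp in all 4 libraries were 7 of 35 (20%) at Trb, 8 of 136 (5.88%) at Tra with Trd and 1 of 7 (14.3%) at Trg. No J segment had one in all 4 libraries in any of these loci, of 14, 62 and 4. The best-ranked peak of Trb stood at 155 to 291 in its list, that of Tra with Trd at 1480 to 2205 and that of Trg at 6616 to 10574. These are descriptions of the 3 loci, with no test between them.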

How the data were processed

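Per the submitters' processing notes, the tools used with mm10 (GRCm38) were MACS3, Bowtie2, Picard, SAMtools, bedtools, deepTools, Trimmomatic, Trim Galore and FastQC. The sources used here do not give versions, caller settings or the treatment of duplicates and of reads with several matches. The authors deposited 1 narrow peak list per library, called separately, with a score, a fold over local background, and −log10 p and q values per peak. Positions are 1-based. Fragments over the summit and around it (local background) came from the fold (1 added to both terms) and Poisson −log10 p, within 0.01, for 100% of peaks, by a calculation checked on simulated peaks. Library background is the lowest value common to many peaks. Ratios used summed fragments over summed backgrounds with Clopper-Pearson 95% intervals. Counting intervals and floors (3 counts) cover counting error only. Segments came from RefSeq GRCm38.p6, which gave no strand here; no genome was used. The promoter table held 0 Trb segments, so their motifs were not searched. Python 3.11.15, pandas 2.3.3, numpy 2.4.6, scipy 1.17.1 and matplotlib 3.10.9 were used.

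The members and lists were chosen with earlier results of these data known. A further marker list is not reported here. Named were D, J and C segments with a peak within 500 bp, Trbv1, Trbv31, V segments with one in all 4 libraries or among the 5 highest summits, trypsinogen genes with one, regions called in all 4 libraries or in 1 fraction's pair alone, the region between Trbc2 and Trbv31, and the 5 highest by −log10 q per list. Alternatives changed the q threshold, list length, window membership, joining, coverage, distance and libraries. Scales of the summit fragments were added after seeing the data.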

Additional observations from a re-analysis of the deposited data

How the results depend on the processing

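Regions called in all 4 libraries stayed at 11 to 13 and segments with a peak at 8 to 13 under every alternative run, 11 regions with a −log10 q of at least 5 and 8 or 13 segments at a distance of 200 or 1000 bp. With 1 library left out, a call was needed in the remaining libraries only. The counts could then hardly fall, so those runs do not show stability. Leaving out 1 library in turn gave 0 to 3 regions called in the EpCAM-positive fraction alone, 0 to 1 in the EpCAM-negative fraction alone, and a difference of 0 to 2 peaks. For these region counts a single library stood for its fraction, and no share over all regions was computed. Permuting within the replicate block left the differences at 1 peak and 865 bases, each with an exact permutation p of 0.5, the smallest that block allows; the numbers are not shown to pair the samples (correlation of deviations 0.16, 2 pairs). Of regions whose height did not overlap, the count without scaling was 5 with both EpCAM-positive and 1 with both EpCAM-negative libraries higher. The shares over all regions called in all 4 libraries were then 49.5% and 5.2%. When 1 library was left out the scaled counts were 2 to 3 and 4 to 8 of the 12. In those runs the shares over all such regions were 23.1 to 27.5% and 43.3 to 49.9%. There a single library stands for its fraction, and such counts cannot fall. Without scaling the log2 ratio changed sign in 5 of the 12 regions, to 0.20 between Trbc2 and Trbv31, 0.21 at Trbv5, 0.37 before Trbv12-1, 0.19 at Trbv16 and 0.29 at Trbd1, which follows from the higher EpCAM-positive background. The lowest summits called held 4 fragments in the window and 6 among V regions.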
